A study of Mus musculus with 8 samples.

Results

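Imprinted genes, which are expressed mainly from the copy inherited from 1 parent, were examined in pancreatic islets of mice that carry the ob mutation of Lep. The members were a list of 34 genes known to be imprinted in the mouse. They were selected on having values in the 8 libraries and were proposed with earlier results of this same contrast known. Their differences between ob/ob and ob/+ are therefore given as a description, and no test over the list was made. Of the 34 genes, 31 had values, H19 and Meg3 were not analysed here, and Ascl2 was listed without a value. A level of 1 FPKM (fragments relative to transcript length and to the library's total) in at least 4 libraries was reached by 24 of them. In the files as a whole 17401 of 20715 listed genes had values and 11747 reached that level.

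The mice were of the C57BL/6 strain and 12 weeks old, and their islets gave 4 ob/ob libraries and 4 ob/+ libraries. The ob/ob mice have 2 mutant copies of Lep, which encodes leptin, and are known to overeat and to become obese and insulin resistant. The ob/+ mice carry 1 mutant copy beside 1 normal copy, so no group was free of the mutation. Leptin is missing from the whole body of an ob/ob mouse and not from the islet alone, and the labels do not say whether each library came from its own mouse. Islets are clusters of endocrine cells, and whole islets were sequenced, so a lower value from fewer cells of a type and one from less RNA per cell cannot be told apart.

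Imprinting is set in the germ line by DNA methylation at control regions, which silence 1 parental copy of nearby genes in the offspring. Imprinted genes lie in clusters, are mostly high before birth, and are known for their part in growth, in placenta and brain, and in beta cells. Many paternally expressed members are known to promote growth and many maternally expressed members to restrain it. FPKM sums both parental copies and all isoforms of a gene, so the values show a gene's level and not which copy it came from. The parental copy given below is the one known from mouse tissues, in some cases from brain alone, and was not measured in these islets.

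Absolute depth is unknown, and a weak estimate from low values put relative depth between 0.976 and 1.03. The insulin genes made up 60.7% ± 3.72 of an ob/ob library's FPKM and 48.8% ± 5.31 of an ob/+ library's (SD, n = 4 each; exact two-sided permutation test, p = 0.0286, the smallest that 70 assignments can give). Acinar enzyme genes made up 5.29% ± 2.58 of it for ob/ob and 10.3% ± 5.65 for ob/+ (SD, n = 4 each; exact permutation p = 0.143), with the highest share, 18.3%, in library 4 of ob/+. That library was the lowest of the ob/+ libraries in 19 of the 24 members at or above the level and in 79.6% of all tested genes. Summed FPKM of 6 alpha cell markers ran from 8666 to 12039 in ob/ob and from 25247 to 31791 in ob/+. For 5 delta and PP cell markers it ran from 3746 to 5906 in ob/ob and from 12580 to 17218 in ob/+. Of these markers 5 of 6 and 5 of 5 were lower in ob/ob by the fit described next. Ttr, the other alpha cell marker, was called higher, with groups that overlapped. Of 9 beta cell markers 2 were called higher, Ins2 and Iapp, and 3 were called lower. The lower ones, Mafa, Slc2a2 and Ucn3, averaged 54.9, 86.6 and 269 FPKM in ob/ob, against 122, 213 and 408 FPKM in ob/+. Iapp averaged 47755 FPKM in ob/ob and 28021 FPKM in ob/+. For 6 neuron and Schwann cell markers the sum ran from 26.1 to 33.1 in ob/ob and from 55.4 to 73.8 in ob/+, with 4 of 5 tested markers lower. Those 4 include Sox10, which reached 1 FPKM only in ob/+, so the filter fixed its direction. None of these lists had a marker at or near 0, sums for endothelial and macrophage markers overlapped between the genotypes, and the sum for 7 duct markers, of which Cftr was under 0.1 FPKM, ran from 201 to 219 in ob/ob and from 149 to 184 in ob/+. Of 10 mesenchymal and pericyte markers 9 were tested, with a median log2 difference of -0.87. The collagen genes Col1a1, Col1a2 and Col3a1 were called lower, with means of 1.54, 2.78 and 4.26 FPKM in ob/ob, against 5.8, 6.54 and 9.46 FPKM in ob/+. The pericyte and muscle genes Rgs5 and Acta2 were called higher, with means of 51.9 and 11.8 FPKM in ob/ob, against 33.5 and 6.77 FPKM in ob/+. The summed level of that list ran from 72.2 to 98.8 in ob/ob and from 82.8 to 92.9 in ob/+, with Rgs5 the most abundant gene in it. The part of these shifts in the levels of the imprinted genes was not tested.

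Imprinted genes differed between ob/ob and ob/+ islets in both directions, with the falls larger and more numerous. In a limma fit over all 11747 tested genes, a gene being called where its Benjamini-Hochberg adjusted p was under 0.05, 10 of the 24 members were called lower in ob/ob and 3 were called higher. Over all tested genes 10.6% were called lower and 8.21% were called higher. Those called lower were Nnat, Sgce, Zim1, Mest, Plagl1, Grb10, Rasgrf1, Cdkn1c, Impact and Ndn, and those called higher were H13, Slc22a18 and Nap1l5. The median difference of mean log2(FPKM + 1), ob/ob minus ob/+, was -0.26 over the 24 members and -0.07 over all tested genes. By sign 16 of the 24 were lower in ob/ob, as were 62.6% of all tested genes. The 4 libraries of ob/ob and the 4 of ob/+ did not overlap in 10 members that were lower in ob/ob and in 4 that were higher. Over all tested genes 10.7% were lower and 9.75% higher without overlap.

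Of the paternally expressed members 14 of 19 were tested, with 7 called lower, 1 called higher and a median log2 difference of -0.36. Of the maternally expressed members 9 of 14 were tested, with 3 called lower, 2 called higher and a median of -0.12. Gnas, whose expressed copy depends on the isoform, was not called. The difference between the paternal and maternal sets was not tested. Mest, Plagl1 and Cdkn1c reached 1 FPKM only in ob/+, and Slc22a18 only in ob/ob, so these 4 genes entered the fit through the genotype in which they were high and had to differ. The counts above include them and support nothing by themselves. Without library 1 of ob/+ the lower calls numbered 5, of which 4 were paternally and 1 maternally expressed. Without library 2 of ob/+ they numbered 6 (5 paternally, 1 maternally expressed), and without library 3 of ob/+ also 6 (4 paternally, 2 maternally expressed). Over all genes the lower calls numbered 635 without library 1, 815 without library 2 and 726 without library 3 of ob/+, against 1243 with every library. Mest, Plagl1 and Cdkn1c left the fit in each of these cases, and Zim1, Ndn or both lost their call. Without library 2 of ob/ob the higher calls numbered 1, as Slc22a18 left the fit and Nap1l5 lost its call, and over all genes they numbered 719, against 965 with every library.

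**Figure D1:**
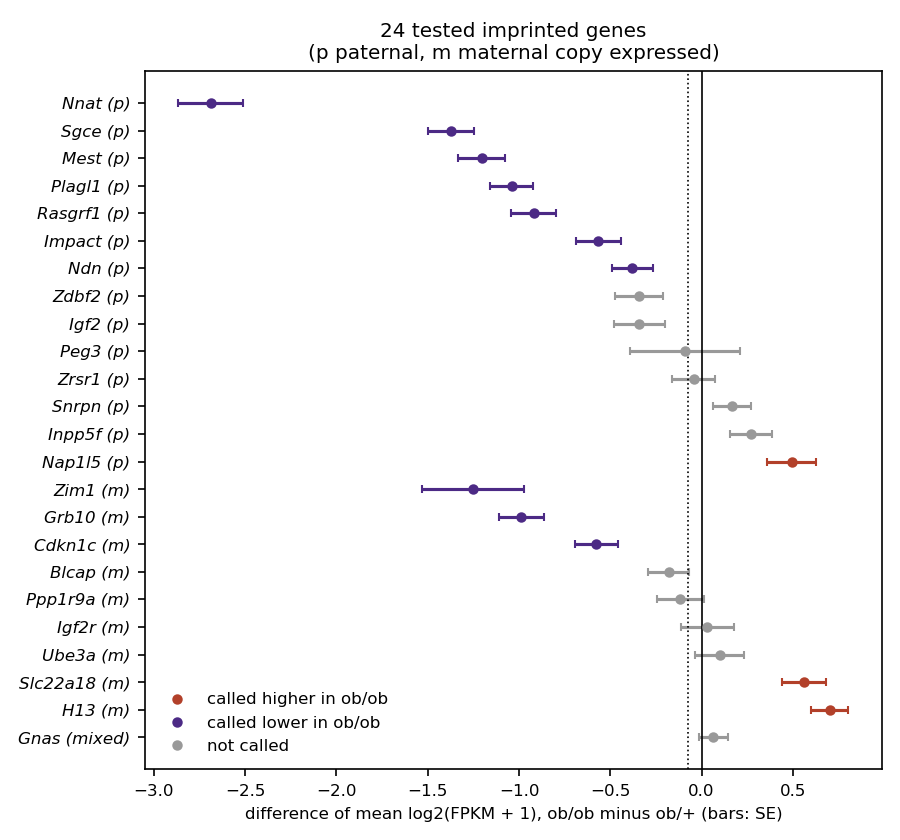
Difference of mean log2(FPKM + 1), ob/ob minus ob/+, for the 24 tested imprinted genes, grouped by the parental copy known to be expressed and ordered by size, with bars of 1 SE. The dotted line is the median of all tested genes, -0.07. Nnat stands farthest to the left at -2.69, and H13 farthest to the right at 0.70.

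The sequence upstream of the members' start sites was read from the RefSeq promoter table, build GRCm38.p6, in which 29 of the 34 members had 45 windows of 250 upstream bases. CpG pairs, the sites of DNA methylation, numbered 11 at the median in these windows and 6 over all 32851 windows of the table. The hexamer TGCCGC, which the imprint-keeping protein ZFP57 is known to bind when methylated, was searched on both strands. It was found in 7 of the 45 windows (15.6%) and in 2850 windows of the table (8.68%). The windows are promoters and not the imprinting control regions, several overlap one another, and the hexamer itself holds a CpG. Windows of 3 members called lower and 3 called higher were read 5′ to 3′ on the gene's strand, with each CpG in capitals, cut to the part that holds no annotated exon. Nnat (chr2:157560008-157560077, plus strand) has the largest fall, Mest (chr6:30737800-30738049, plus strand) holds the hexamer at bases 9 and 184, and Grb10 (chr11:12037421-12037670, minus strand) has the most CpG of all members' windows. Those of H13 (chr2:152669211-152669460, plus strand), Nap1l5 (chr6:58907127-58907261, minus strand, hexamer at base 112) and Slc22a18 (chr7:143473539-143473735, plus strand) belong to the members that were called higher.
Nnat: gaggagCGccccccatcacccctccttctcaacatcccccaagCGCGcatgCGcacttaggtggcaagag
Mest: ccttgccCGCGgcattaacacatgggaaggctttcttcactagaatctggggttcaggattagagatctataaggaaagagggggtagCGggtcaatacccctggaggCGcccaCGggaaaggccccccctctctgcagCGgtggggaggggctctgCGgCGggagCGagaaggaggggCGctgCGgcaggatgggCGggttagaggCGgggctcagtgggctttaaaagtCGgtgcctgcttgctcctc
Grb10: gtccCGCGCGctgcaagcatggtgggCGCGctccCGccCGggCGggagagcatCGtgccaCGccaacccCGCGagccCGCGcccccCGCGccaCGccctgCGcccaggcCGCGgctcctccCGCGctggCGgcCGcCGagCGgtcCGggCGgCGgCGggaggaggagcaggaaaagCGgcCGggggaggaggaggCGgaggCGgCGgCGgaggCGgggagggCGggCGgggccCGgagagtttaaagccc
H13: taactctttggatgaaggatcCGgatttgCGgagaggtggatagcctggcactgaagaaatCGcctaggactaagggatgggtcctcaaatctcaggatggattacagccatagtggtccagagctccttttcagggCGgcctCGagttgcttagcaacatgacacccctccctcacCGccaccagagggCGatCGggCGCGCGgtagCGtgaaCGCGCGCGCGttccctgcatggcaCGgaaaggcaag
Nap1l5: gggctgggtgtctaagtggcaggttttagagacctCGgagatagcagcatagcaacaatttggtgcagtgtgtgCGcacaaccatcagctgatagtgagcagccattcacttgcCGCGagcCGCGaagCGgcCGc
Slc22a18: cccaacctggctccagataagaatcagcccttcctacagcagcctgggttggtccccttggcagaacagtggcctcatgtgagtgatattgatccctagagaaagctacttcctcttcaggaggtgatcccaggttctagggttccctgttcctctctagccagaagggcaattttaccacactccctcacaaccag

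CpG pairs numbered 40 in the Grb10 stretch, 14 in that of Mest and 4 in the 70 bases of Nnat. They numbered 18 in H13, 8 in Nap1l5 and 0 in Slc22a18, so the counts of the 2 sets overlapped. Among members with a window, 3 of 7 called lower, 1 of 3 called higher and 1 of 11 not called held the hexamer. A match describes the letters of the window alone, and methylation was not measured.

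Nnat and H13, both membrane proteins of the endoplasmic reticulum, moved in opposite directions. Nnat encodes neuronatin, a small protein known from mouse beta cells to aid the cutting of the signal peptide from newly made insulin precursor. It lies on chromosome 2 from 157560078 to 157562522 (GRCm38, plus strand). Its level was 4.9, 5.6, 3.86 and 4.28 FPKM in the ob/ob libraries, against 46.37, 26.69, 44.38 and 28.03 FPKM in the ob/+ libraries. Every ob/ob library was far below every ob/+ library, and the ob/+ libraries themselves fell into a high pair and a lower pair. The means were 4.66 ± 0.758 FPKM in ob/ob and 36.4 ± 10.4 FPKM in ob/+ (SD, n = 4 each), a level 7.80-fold lower in ob/ob, and the log2 difference was -2.69 ± 0.18 (SE). In order of mean level Nnat ranked 15 among the 31 members with values in ob/ob and 4 in ob/+.

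Nnat lies inside Blcap, a maternally expressed gene on the opposite strand whose protein is linked to cell death. Blcap had 21.28, 20.08, 19.63 and 17.87 FPKM in ob/ob, against 25.21, 23.37, 23.33 and 18.4 FPKM in ob/+. The groups overlapped and Blcap was not called. The ratio of Nnat to Blcap within a library averaged 0.236 in ob/ob and 1.602 in ob/+, with no overlap. Whether the authors counted by strand is not given in the sources used here, so reads of these overlapping genes could have been split between them. Set against glucagon, the alpha cell hormone, Nnat per Gcg averaged 0.000567 in ob/ob and 0.00137 in ob/+. Set against somatostatin, the delta cell hormone, Nnat per Sst averaged 0.00381 in ob/ob and 0.00642 in ob/+. For Nnat per Sst the genotypes all but met, at 0.00485 in the highest ob/ob library and 0.00491 in the lowest ob/+ library.

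H13 encodes signal peptide peptidase, which cuts the signal peptides left in the membrane of the endoplasmic reticulum after secreted proteins are released. It lies on chromosome 2 from 152669461 to 152708670 (plus strand). Its level was 98.27, 96.02, 92.62 and 100.75 FPKM in ob/ob, against 57.11, 73.87, 56.45 and 51.43 FPKM in ob/+. The ob/ob libraries were all higher and closer together. The log2 difference was 0.70 ± 0.10 (SE), a mean 1.62-fold higher. Mcts2, a paternally expressed copy of a translation factor gene that sits in an H13 intron, averaged 2.70 ± 1.05 FPKM in ob/ob and 3.15 ± 0.985 FPKM in ob/+ (SD, n = 4 each) and was not called. H13 per Mcts2 averaged 39.6 in ob/ob and 20.5 in ob/+, and the libraries overlapped because Mcts2 itself varied.

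**Figure D2:**
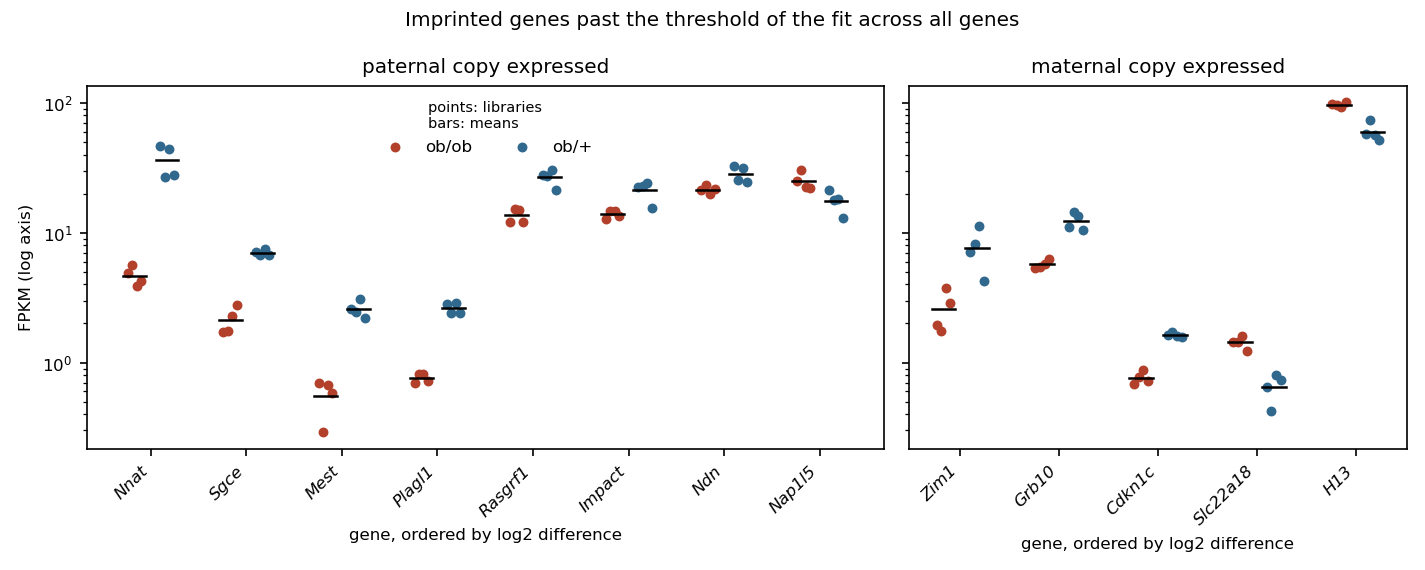
FPKM (log axis) of the 13 imprinted genes past the threshold, split by the parental copy known to be expressed, with 1 point per library, ob/ob left of ob/+ and bars at the means. The points of the genotypes do not overlap in any of these genes, which the filter fixed in advance for Mest, Plagl1, Cdkn1c and Slc22a18. Nnat is at 3.86 to 5.6 in ob/ob and 26.69 to 46.37 in ob/+.

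Among members of growth factor and receptor signalling, the 2 intracellular signalling genes Grb10 and Rasgrf1 fell, while the growth factor Igf2 and the clearance receptor Igf2r were not called. Grb10 encodes an adaptor that binds the insulin and IGF1 receptors and is known to restrain their signal, and lies on chromosome 11 from 11930508 to 12038683 (minus strand). It had 5.34, 5.45, 5.72 and 6.32 FPKM in ob/ob, against 11.1, 14.54, 13.48 and 10.46 FPKM in ob/+, all ob/ob libraries being lower. The log2 difference was -0.99 ± 0.12 (SE), a mean 2.17-fold lower. Rasgrf1, on chromosome 9 from 89909908 to 90026977 (plus strand), encodes an exchange factor that activates Ras, and mice without it are known to have fewer beta cells. It had 12.18, 15.2, 15.03 and 12.17 FPKM in ob/ob, against 27.93, 27.39, 30.68 and 21.19 FPKM in ob/+. The groups stood apart, with a log2 difference of -0.92 ± 0.12 (SE).

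Igf2, insulin-like growth factor 2, was low in both genotypes, with 1.34, 1.43, 1.94 and 1.15 FPKM in ob/ob, against 2.86, 1.73, 1.73 and 2.21 FPKM in ob/+. One ob/ob library lay within the ob/+ range, and the log2 difference was -0.34 ± 0.14 (SE). Igf2 was called lower with acinar genes left out of the scaling (adjusted p = 0.00596) and without library 3 of ob/ob (adjusted p = 0.033), with adjusted p of 0.00596 to 0.348 over the 17 alternatives. Igf2r, which takes up and degrades that factor, averaged 10.5 ± 1.49 FPKM in ob/ob and 10.4 ± 2.38 FPKM in ob/+ (SD, n = 4 each). Gnas encodes the G protein alpha subunit through which the incretin and glucagon receptors raise cyclic AMP. It was the most abundant member in both genotypes, with 841.88, 876.07, 915.12 and 748.63 FPKM in ob/ob, against 829.24, 815.23, 801.28 and 778.52 FPKM in ob/+. The groups overlapped, and the log2 difference was 0.07 ± 0.08 (SE). With acinar genes left out of the scaling, Igf2r and Gnas changed sign and remained uncalled. Dlk1, a membrane protein that restrains the formation of fat cells, was below the level in every library but 1, with 0.22, 0.11, 0.21 and 0.29 FPKM in ob/ob, against 0.7, 0.24, 1.07 and 0.47 FPKM in ob/+.

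Of 4 members known to hold back growth or cell division, Cdkn1c, Plagl1 and Ndn were tested and Phlda2 was not. Cdkn1c and Plagl1 passed the filter only through ob/+, so their direction was fixed by it. Cdkn1c encodes p57, an inhibitor of cyclin-dependent kinases whose loss in human islets is part of focal hyperinsulinism, and lies on chromosome 7 from 143458339 to 143461050 (minus strand). It had 0.68, 0.77, 0.88 and 0.72 FPKM in ob/ob, against 1.62, 1.71, 1.6 and 1.57 FPKM in ob/+. The libraries of each genotype were close together and the groups apart, with a mean 2.13-fold lower in ob/ob. Plagl1, a zinc finger transcription factor whose overexpression in humans causes transient neonatal diabetes, had 0.7, 0.81, 0.81 and 0.72 FPKM in ob/ob, against 2.84, 2.39, 2.86 and 2.4 FPKM in ob/+. Its mean was 3.45-fold lower in ob/ob. Both genes sat under 1 FPKM in every ob/ob library.

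Ndn, necdin, a MAGE family protein that restrains growth of neurons, had 21.21, 23.17, 19.87 and 21.86 FPKM in ob/ob, against 32.4, 25.62, 31.44 and 24.4 FPKM in ob/+. The groups did not overlap, but the lowest ob/+ library was near the highest ob/ob library. The log2 difference was -0.38 ± 0.11 (SE), and its call was lost in 5 of 17 alternatives, among them the one without library 1 of ob/+ (adjusted p = 0.0964) and the one that scaled without the 10 most abundant genes (adjusted p = 0.227; range over the 17 alternatives 7.15e-05 to 0.227). Phlda2, a brake on placental growth, was at 0.08, 0, 0.08 and 0 FPKM in ob/ob, against 0.24, 0, 0.24 and 0.16 FPKM in ob/+.

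Mest, an alpha/beta hydrolase fold protein of the endoplasmic reticulum known to rise in mouse fat tissue that is expanding, lies on chromosome 6 from 30723547 to 30748465 (plus strand). It had 0.69, 0.29, 0.67 and 0.58 FPKM in ob/ob islets, against 2.57, 2.47, 3.08 and 2.21 FPKM in ob/+ islets. All ob/ob libraries were under 1 FPKM and all ob/+ libraries above that level, with a mean 4.63-fold lower in ob/ob. Impact, an inhibitor of the GCN2 arm of the amino acid starvation response, had 12.81, 14.64, 14.67 and 13.55 FPKM in ob/ob, against 22.49, 23.03, 24.18 and 15.6 FPKM in ob/+. The groups stood apart although library 4 of ob/+ came near the ob/ob range, and the log2 difference was -0.57 ± 0.12 (SE). Slc22a18, a member of the organic cation transporter family, had 1.45, 1.45, 1.61 and 1.22 FPKM in ob/ob, against 0.65, 0.42, 0.8 and 0.74 FPKM in ob/+, a mean 2.20-fold higher.

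Nap1l5, of the nucleosome assembly protein family, lies inside Herc3 on the opposite strand. It had 24.94, 30.66, 22.38 and 22.24 FPKM in ob/ob, against 21.3, 17.98, 18.06 and 13.06 FPKM in ob/+. The gap between the groups was narrow, and the log2 difference was 0.49 ± 0.13 (SE). Its call was lost without library 2 of ob/ob (adjusted p = 0.0529) and with acinar genes left out of the scaling (adjusted p = 0.0765; range over the 17 alternatives 0.000561 to 0.0765). Herc3, a ubiquitin ligase gene, averaged 4.18 ± 0.618 FPKM in ob/ob and 4.53 ± 0.941 FPKM in ob/+ (SD, n = 4 each), with groups that overlapped.

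In the Peg3 cluster on chromosome 7 the neighbouring genes did not share 1 difference. Peg3, a large zinc finger protein of growth and maternal behaviour, was the most abundant member after Gnas, with 102.49, 102.95, 146.61 and 122.99 FPKM in ob/ob, against 126.27, 151.73, 177.48 and 71.93 FPKM in ob/+. Both the highest and the lowest library were ob/+, and Peg3 was not called. Zim1, a zinc finger gene next to it (6671269 to 6696450, minus strand), had 1.95, 1.76, 3.72 and 2.87 FPKM in ob/ob, against 7.06, 8.17, 11.23 and 4.27 FPKM in ob/+. The groups did not overlap, and the log2 difference was -1.25 ± 0.28 (SE), with the call lost without library 1 of ob/+ (adjusted p = 0.0517) or library 2 of ob/+ (adjusted p = 0.0659; range over the 17 alternatives 0.000914 to 0.0659). The ratio of Zim1 to Peg3 within a library was 0.0190, 0.0171, 0.0254 and 0.0233 in ob/ob, against 0.0559, 0.0538, 0.0633 and 0.0594 in ob/+. The ratio separated the genotypes more widely than the Zim1 level did, and the ob/+ library with the least Zim1 also had the least Peg3. Usp29, a deubiquitinase gene that starts beside Peg3, stood at 0.753 ± 0.113 FPKM in ob/ob and 1.11 ± 0.331 FPKM in ob/+ (SD, n = 4 each), below the level for testing.

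Within the stretch of chromosome 6 that holds Sgce and Peg10, which share a start region and point away from each other, genes moved in opposite directions. Sgce, epsilon-sarcoglycan, a membrane protein mutated in human myoclonus dystonia (4674350 to 4747207, minus strand), had 1.72, 1.75, 2.27 and 2.78 FPKM in ob/ob, against 7.1, 6.71, 7.55 and 6.77 FPKM in ob/+. Every ob/ob library was lower, with a mean 3.30-fold lower and a log2 difference of -1.37 ± 0.13 (SE). Peg10, derived from a retrotransposon and needed for the placenta (4747306 to 4760517, plus strand), had 0.19, 0.17, 0.1 and 0.15 FPKM in ob/ob, against 0.57, 1.67, 1.07 and 0.71 FPKM in ob/+. It lay below the level for testing, its groups stood apart, and without that filter it was called lower, with a log2 difference of -0.77 ± 0.14 (SE).

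Farther along that stretch Ppp1r9a, a neurabin that ties actin to a phosphatase, averaged 3.99 ± 0.381 FPKM in ob/ob and 4.44 ± 0.767 FPKM in ob/+ (SD, n = 4 each) and was not called. Asb4, part of a ubiquitin ligase, was under 1 FPKM throughout, with 0.48, 0.44, 0.54 and 0.56 FPKM in ob/ob, against 0.61, 0.76, 0.86 and 0.79 FPKM in ob/+. Between them lie Pon3 and Pon2, lactonases taken from a list of further genes reported as imprinted. Pon3 averaged 23.5 ± 2.997 FPKM in ob/ob and 7.92 ± 1.16 FPKM in ob/+, and Pon2 averaged 22.4 ± 0.506 FPKM in ob/ob and 13.3 ± 1.55 FPKM in ob/+ (SD, n = 4 each). Both were called higher, with log2 differences of 1.46 ± 0.12 and 0.71 ± 0.11 (SE). Casd1, a sialic acid modifying enzyme on the other side of Sgce, averaged 13.7 ± 1.33 FPKM in ob/ob and 12.3 ± 2.08 FPKM in ob/+ (SD, n = 4 each) and was not called.

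**Figure D3:**
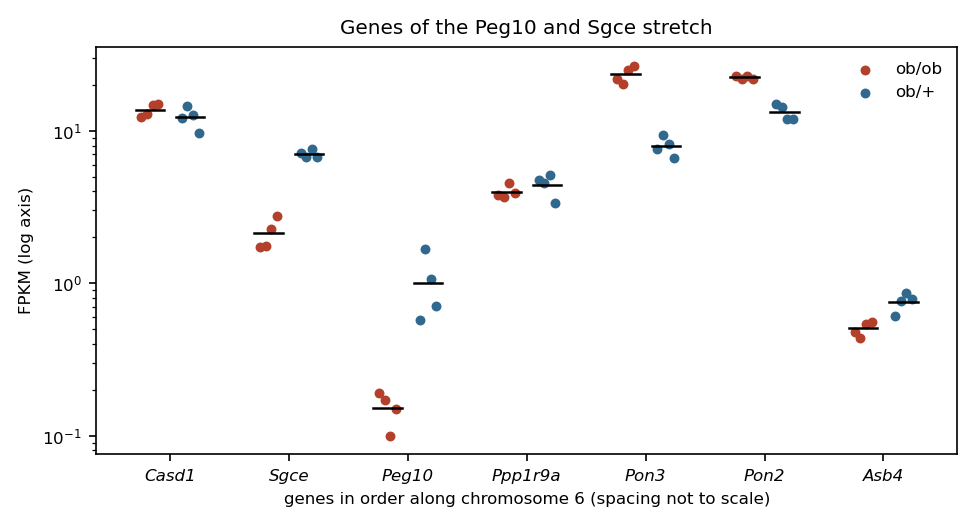
FPKM (log axis) of 7 genes in their order along chromosome 6, spacing not to scale, with 1 point per library, ob/ob left of ob/+ and bars at the means. Sgce and Peg10 lie lower in ob/ob, Pon3 and Pon2 higher, and Casd1 and Ppp1r9a overlap.

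In the cluster of chromosome 7 known from Prader-Willi and Angelman syndromes, Ndn was called lower, and Snrpn and Ube3a were not called at the deposited scaling. Snrpn encodes SmN, a core splicing protein, and had 32.24, 34.78, 35.15 and 29.52 FPKM in ob/ob, against 32.37, 29.74, 29.87 and 25.14 FPKM in ob/+. The genotypes overlapped. Snrpn was called higher under median centring (adjusted p = 0.0187) and upper-quartile scaling (adjusted p = 0.022), with adjusted p of 0.0187 to 0.503 over the 17 alternatives. The ratio of Ndn to Snrpn within a library averaged 0.657 in ob/ob and 0.971 in ob/+, without overlap. Ube3a, a ubiquitin ligase known to be imprinted in neurons, had 7.88, 7.86, 8.75 and 8.8 FPKM in ob/ob, against 8.23, 9.27, 8.29 and 5.48 FPKM in ob/+, the last ob/+ library standing below the rest. Magel2 was at most 0.04 FPKM in any library and Mkrn3 at most 0.16 FPKM, so both genes were close to 0 in both genotypes.

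In the Kcnq1 cluster on chromosome 7, Cdkn1c passed the filter only through ob/+ and Slc22a18 only through ob/ob, so the filter fixed their opposite directions. Their ratio within a library, Cdkn1c per Slc22a18, averaged 0.534 in ob/ob and 2.67 in ob/+. The 34 members lie in 19 stretches, of which 5 held 2 or more tested members. In 4 of these 5 stretches 1 member was called, and the Kcnq1 cluster held these 2 called members.

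**Figure D4:**
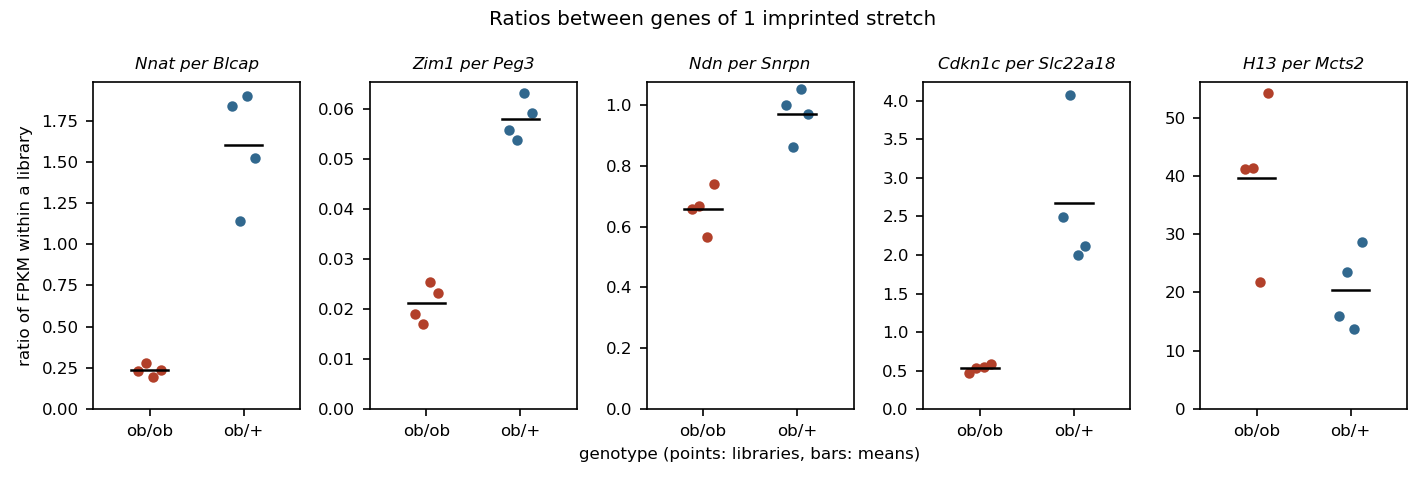
Ratio of the FPKM of 2 genes of 1 imprinted stretch within each library, with axes from 0, ob/ob left of ob/+, 1 point per library and bars at the means. The genotypes do not overlap in the first 4 panels, and they overlap for H13 per Mcts2. For Cdkn1c per Slc22a18 the filter fixed this separation in advance. Nnat per Blcap is 0.236 in ob/ob and 1.602 in ob/+ at the mean.

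The remaining tested members were not called at the deposited scaling. Inpp5f, an inositol phosphatase, had 13.51, 12.64, 14.6 and 14.02 FPKM in ob/ob, against 12.13, 12.29, 11.42 and 9.09 FPKM in ob/+, groups that did not overlap but lay close. It was called higher under median centring (adjusted p = 0.00177) and upper-quartile scaling (adjusted p = 0.00311), with adjusted p of 0.00177 to 0.803 over the 17 alternatives. Zrsr1, a splicing factor gene inside an intron of Commd1, averaged 8.16 ± 0.490 FPKM in ob/ob and 8.48 ± 1.06 FPKM in ob/+ (SD, n = 4 each). Zdbf2, a zinc finger gene of growth and feeding in mice, had 3.03, 2.91, 3.74 and 3.36 FPKM in ob/ob, against 4.38, 4.7, 5.44 and 3.28 FPKM in ob/+. Library 4 of ob/+ alone fell within the ob/ob range of Zdbf2, and without that library Zdbf2 and Blcap were called lower, with log2 differences of -0.46 ± 0.10 and -0.27 ± 0.08 (SE). Zdbf2 was called lower in 6 of the 17 alternatives, median centring (adjusted p = 0.0284) and upper-quartile scaling (adjusted p = 0.0291) among them, with adjusted p of 0.00213 to 0.305 over all of them. Gnas, Peg3 and H13 were the 3 members with the highest means in each genotype, and the summed FPKM of the 24 tested members averaged 1256 ± 82.5 for ob/ob and 1264 ± 101 for ob/+ (SD, n = 4 each).

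Further genes reported as imprinted in the mouse were taken from a list of 56, of which 31 were tested. There 7 were called higher and 4 lower, with a median log2 difference of -0.05; over all tested genes 8.21% were called higher and 10.6% lower. The higher ones were Pon3, Smoc1, Rasal1, Pon2, Ddc, Adam23 and Ins2, and the lower ones Gab1, Gatm, Th and Qpct, all with groups that did not overlap. Rasal1 reached 1 FPKM only in ob/ob, so the filter fixed its direction and its lack of overlap. The 7 called higher include it. Smoc1, a matrix protein of growth factor signalling, averaged 5.02 ± 1.03 FPKM in ob/ob and 1.49 ± 0.118 FPKM in ob/+ (SD, n = 4 each). Ddc, which makes dopamine and serotonin, averaged 176 ± 6.81 FPKM in ob/ob and 117 ± 8.94 FPKM in ob/+ (SD, n = 4 each). Th, which acts before it in the dopamine path, averaged 17.0 ± 1.85 FPKM in ob/ob and 24.7 ± 5.32 FPKM in ob/+ (SD, n = 4 each). Gab1, a docking protein of receptor tyrosine kinases, averaged 1.18 ± 0.207 FPKM in ob/ob and 2.41 ± 0.391 FPKM in ob/+ (SD, n = 4 each). For several of these genes, Ins2 and Pon2 among them, imprinting is known from the yolk sac or placenta.

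Of 20 factors known to keep or read imprints 14 were tested, 0 were called higher and 1 was called lower in the limma fit, with a median log2 difference of -0.18. Over all tested genes 8.21% were called higher and 10.6% lower, with a median of -0.07. At an unadjusted p under 0.05 the limma fit had 0 higher and 4 lower. The share over all genes at that threshold is not given here, so this count is not read as a lean. The called factor was Trim28, the co-repressor that ZFP57 recruits, with 21.71, 22.78, 21.66 and 17.99 FPKM in ob/ob, against 30.91, 28.91, 29.48 and 21.54 FPKM in ob/+. Library 4 of ob/+ lay within the ob/ob range. Zfp57 itself, chosen for mention after its values were seen, was below the level for testing, with 0.66, 0.63, 0.81 and 0.71 FPKM in ob/ob, against 0.17, 0.24, 0.24 and 0.18 FPKM in ob/+. All ob/ob libraries were higher, and without the filter Zfp57 was called higher, with a log2 difference of 0.50 ± 0.06 (SE). Hells, a chromatin remodeller needed for DNA methylation, was likewise below the level, with 0.61, 0.76, 0.87 and 0.51 FPKM in ob/ob, against 0.32, 0.34, 0.38 and 0.24 FPKM in ob/+. Its groups stood apart, and without the filter it too was called higher, with a log2 difference of 0.35 ± 0.08 (SE). Dnmt1, the methyltransferase that copies methylation at replication, averaged 4.02 ± 0.479 FPKM in ob/ob and 5.20 ± 0.944 FPKM in ob/+ (SD, n = 4 each) and was not called.

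The nearest tested genes on either side of the members, 35 in all and none of them in either list of imprinted genes, held 5 called higher and 5 called lower, beside the same 8.21% and 10.6% over all tested genes, with a median log2 difference of -0.04. Beside Rasgrf1, which was lower, Tmed3, a carrier of secretory cargo, was higher, at 358 ± 24.4 FPKM in ob/ob and 175 ± 20.9 FPKM in ob/+ (SD, n = 4 each). Vstm2a, the nearest one after Grb10 but 4219041 bases away, was higher as well, at 4.15 ± 0.503 FPKM in ob/ob and 0.353 ± 0.156 FPKM in ob/+ (SD, n = 4 each). Vstm2a reached 1 FPKM only in ob/ob, so the filter fixed its direction and its lack of overlap. The 5 called higher include it. Trpm5, a cation channel that shapes beta cell firing and lies in the Kcnq1 stretch, was lower, at 6.18 ± 1.15 FPKM in ob/ob and 36.8 ± 4.26 FPKM in ob/+ (SD, n = 4 each). Pdk4, a brake on pyruvate oxidation next to the Sgce stretch, averaged 2.40 ± 0.491 FPKM in ob/ob and 9.85 ± 3.28 FPKM in ob/+ (SD, n = 4 each) and was called lower.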

How the data were processed

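RNA of whole islets was measured in 8 libraries, 4 of ob/ob and 4 of ob/+, grouped by the labelled genotype. Per the labels' protocols, islets were freed with collagenase (1 mg/ml), purified on a density gradient and hand-picked, and 1 µg of total RNA went into each library. The deposited values are FPKM; that unit was inferred from the values, which have 2 decimals and differ in their sums, and neither the labels nor the headers name it. The submitters' processing notes name Trimmomatic 0.36, DESeq2 1.20.0, mm10 and GRCm38 but give none of them a role. How reads were aligned and counted, and whether by strand, is not given in the sources used here. FPKM is relative to the library total, so a larger insulin or acinar share lowers other genes, and it holds no counts, so no counting intervals are given. Relative depth was estimated from low values, which fit whole steps weakly.

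The fit took each gene that reached 1 FPKM in 4 or more libraries, on the scale of log2(FPKM + 1). It used limma 3.58.1 under R 4.3.3, whose eBayes step ran with its trend and robust options (statmod 1.5.0), and p-values were two-sided and Benjamini-Hochberg adjusted over all tested genes. Differences on that scale understate the change of low genes; folds are ratios of mean FPKM. Shares were compared by exact permutation with SciPy 1.17.1. The labels do not say that libraries are separate mice, so p-values measure the spread between libraries. Correlations of log2 values were 0.978 to 0.993 within and 0.955 to 0.965 between genotypes, and no library was a duplicate. The members, the lists and the tests were chosen with earlier results of these data known. All members are accounted for. Other genes come from lists of imprinted genes, imprint factors, nearest neighbours and cell markers, where those called with groups that did not overlap could be named. Zfp57, Hells, Trim28, Mcts2, Casd1, Commd1, Herc3, Dnmt1, Gcg, Sst, Ttr and Cftr were named beyond that rule. Gene positions come from GENCODE (GRCm38) and upstream sequences from RefSeq (GRCm38.p6). Alternatives covered scaling, pseudocount, filter, the robust option, a replicate block and left-out libraries.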

Additional observations from a re-analysis of the deposited data

Results flagged for a closer look

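Igf2r, the receptor that clears insulin-like growth factor 2, was at 12.69 FPKM in library 3 of ob/ob, while the other ob/ob libraries were at 9.4 to 9.93 FPKM. The gap was 0.839 of that genotype's whole range, above Dixon's critical value for 4 samples. Over the 31 members with values 62 groups of 4 libraries were looked at, 1 had such a library, and chance flags about 1 in 20 groups. Library 3 of ob/ob was the highest of its genotype in 12 of the 24 tested members and in 53.0% of all tested genes.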

How the results depend on the processing

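Across 17 alternatives Nnat, Sgce, Grb10, Rasgrf1, Impact and H13 kept direction and call; Ndn lost its call in 5, and Zim1 and Nap1l5 in 2 each. Mest, Plagl1, Cdkn1c and Slc22a18 could be tested in 12, where the filter fixed their direction in all but the one without it, so these say nothing of stability. Under all 5 scalings, the deposited one included, 11 of the 13 called members kept their call and 18 of 24 members kept their sign. Mest, Plagl1, Cdkn1c and Slc22a18, whose direction the filter fixed, are counted in both and add nothing to them. Ndn (top 10) and Nap1l5 (acinar) lost their call. Leaving the 10 most abundant genes out of the scaling moved the median of all genes by 0.10 on the log2 scale, and leaving acinar genes out by -0.22. Against 965 genes higher and 1243 lower as deposited, median centring gave 1823 higher (imprinted 5) and upper-quartile scaling 1640 higher (imprinted 5), Inpp5f and Snrpn being added in both, and leaving out the top 10 gave 629 lower, and leaving out acinar genes 523 higher and 5943 lower (maternally expressed 5, with Blcap and Ppp1r9a added; paternally expressed 10, with Igf2, Zrsr1 and Zdbf2 added). Without the acinar-richest library of each genotype 2988 genes were lower. Leaving out 1 library at a time gave 713 to 1104 genes higher and 635 to 3728 lower, the highest without library 4 of ob/+; imprinted genes were 1 to 3 higher and 5 to 10 lower, with 4 to 7 paternally and 1 to 3 maternally expressed. Members not called changed sign as follows. Zrsr1 turned to 0.027 (median centring), 0.0045 (upper quartile), 0.064 (top 10) and 0.015 (without library 1 of ob/+; range with 1 library left out -0.12 to 0.015). Peg3 turned to 0.029 (top 10), 0.0016 (without library 2 of ob/+) and 0.077 (without library 3 of ob/+; range -0.35 to 0.077). Ube3a turned to -0.13 (acinar), -0.019 (without the acinar-richest libraries) and -0.042 (without library 4 of ob/+; range -0.042 to 0.18). Igf2r turned to -0.20, -0.085 and -0.13 under the same 3, and to -0.057 without library 3 of ob/ob (range -0.13 to 0.12). Snrpn turned to -0.084 and Gnas to -0.19 (acinar). The cause was not tested, except that Mest, Plagl1 and Cdkn1c leave the fit by construction when an ob/+ library is left out, and Slc22a18 when an ob/ob library is. Absolute depth is unknown, which limits what can be said of members under 1 FPKM.

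The labels give both genotypes replicate numbers 1 to 4 but do not say that a number marks a shared litter or day. Deviations of same-numbered libraries correlated at -0.22, 0.21, 0.17 and 0.12, and 3 of 4 ob/ob libraries matched best with their own number. With the number as a replicate block 1071 genes were higher and 1603 lower, and of the members 3 were higher and 11 lower, Zdbf2 being added.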
